A study of Mus musculus with 24 samples.

Results

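Ch25h, the liver X receptor genes Nr1h2 and Nr1h3, and the cholesterol efflux and uptake genes Abca1, Abcg1, Apoe and Mylip were followed in alveolar macrophages given IL-13, IL-33 and IL-17A. They were taken by gene symbol and are 7 of the 17017 genes in the deposited tables. All 7 were among the 13215 genes tested, which reached at least 1 TPM in at least 3 libraries. TPM is a read count divided by gene length and scaled to the same total in every library. The cells were primary alveolar macrophages from BALB/cJ mice of WT genotype, phagocytes that live in the air spaces, and RNA was taken 20 h after stimulation. The 8 groups of 3 libraries received rIL-33/rIL-13/rIL-17A, rIL-33/rIL-13, rIL-13/rIL-17A, rIL-13, rIL-33/rIL-17A, rIL-33 or rIL-17A, or were left Untreated. The "r" is as in the labels, and the groups are written below without it, with plus signs. The labels give no dose, and nothing in them ties the 3 libraries in each group to different mice or dishes. The p-values therefore measure the spread between libraries, which may be technical.

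Ch25h encodes cholesterol 25-hydroxylase, the enzyme that turns cholesterol into the oxysterol 25-hydroxycholesterol. Oxysterols are ligands of the liver X receptors LXRα, encoded by Nr1h3, and LXRβ, encoded by Nr1h2, which bind DNA with a retinoid X receptor partner. The receptors are known to switch on Abca1 and Abcg1, transporters that move cholesterol out of macrophages, Apoe, whose lipoprotein accepts it, and Mylip, a ubiquitin ligase that lowers cholesterol uptake. In the lung, alveolar macrophages clear surfactant lipid, and loss of Abcg1 in mice is known to fill them with cholesterol.

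The libraries held 9130748 to 12886882 recovered reads and 11569 to 12204 genes at 1 TPM or more. The first principal component of all tested genes (26.4% of the variance) had all 12 IL-13 libraries on 1 side and the other 12 on the opposite side. The second component (8.9%) set apart replicate 2 of IL-33+IL-13+IL-17A and, less far out, replicate 2 of IL-17A and replicate 1 of the untreated cells. Of 10 alveolar macrophage markers 9 reached 1 TPM in 3 libraries, with Siglecf at 257 to 548 TPM and Itgax at 1552 to 2524 TPM, while Marco stayed at or below 0.799 TPM. The sum of the list was 6918 to 8701 TPM with IL-13 and 2877 to 3193 TPM without, and its largest member was Chil3. In such bulk samples, fewer cells of a type and less RNA per cell cannot be told apart.

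Ch25h (ENSMUSG00000050370) is a gene without introns on the minus strand of chromosome 19, bases 34473778 to 34475164 (mm10). The antisense gene Gm26902 overlaps its exon and reached about 7 TPM at most. The handling of strand is not given in the sources used here, so reads of the pair cannot be told apart. Nr1h2 (ENSMUSG00000060601) lies on chromosome 7, bases 44549616 to 44553951, and Apoe (ENSMUSG00000002985) on the same chromosome, bases 19696109 to 19699188. Nr1h3 (ENSMUSG00000002108) lies on chromosome 2, bases 91184061 to 91202834, where an exon of Gm13783 overlaps it on the same strand. Abca1 (ENSMUSG00000015243) lies on chromosome 4, bases 53030787 to 53159895, Abcg1 (ENSMUSG00000024030) on chromosome 17, bases 31057675 to 31117988, and Mylip (ENSMUSG00000038175) on chromosome 13, bases 45389742 to 45412022. All 7 are protein-coding, and each value is a sum over the whole gene.

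The promoter windows of Ch25h, the gene that changed most, and of Abca1, a classical LXR target, are shown. Of the 7 genes 6 matched the RefSeq promoter table (GRCm38.p6), and only these 2 held any motif searched for. The Ch25h match was to an element added after its window had been read, and without that element only Abca1 held a match. Each window shown runs from 250 bases before the RefSeq start to 50 after it, 5′ to 3′ on the minus strand, with the matched motif in capitals. For Ch25h, as for the searched windows of Nr1h3 and some of those of Apoe, that start lies inside the gene bounds given above. The Ch25h window is chr19:34475099-34475398 and the Abca1 window is chr4:53159846-53160145.
Ch25h: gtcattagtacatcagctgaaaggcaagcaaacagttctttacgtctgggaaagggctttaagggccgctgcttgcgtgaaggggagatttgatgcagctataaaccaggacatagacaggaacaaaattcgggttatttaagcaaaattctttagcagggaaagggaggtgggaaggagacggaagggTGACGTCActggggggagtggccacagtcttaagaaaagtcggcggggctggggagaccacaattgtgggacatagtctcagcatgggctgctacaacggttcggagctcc
Abca1: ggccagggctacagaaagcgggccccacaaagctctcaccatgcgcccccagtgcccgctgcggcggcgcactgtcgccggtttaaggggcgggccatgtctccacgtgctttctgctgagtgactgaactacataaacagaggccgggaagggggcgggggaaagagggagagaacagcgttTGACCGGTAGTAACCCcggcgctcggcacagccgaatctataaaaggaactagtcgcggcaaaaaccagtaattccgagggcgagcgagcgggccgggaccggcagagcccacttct
Windows were searched on both strands. The capitals in Ch25h, at -61 to -54 from the start, are the palindromic cAMP response element TGACGTCA, which 1.88% of all 27025 windows held. That element was added to the search after this window had been read, so its match there was fixed in advance. The capitals in Abca1, at -67 to -52, are a DR4 element on the opposite strand, the form of site that LXR is known to bind there. It is a pair of AGGTCA copies 4 bases apart, here with up to 3 mismatches allowed and 3 found, and 18.7% of the 27025 windows held such a match. The STAT-type pairs of TTC and GAA with 3 or 4 bases between them, found in 8.47% and 6.99% of those windows, had no match in the windows of the 6 genes. The interferon-type repeat of GAAA with 2 bases between the copies, found in 3.49%, had none either. Abcg1 was not matched.

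Ch25h was the most responsive of the 7 genes. With IL-33+IL-13+IL-17A it stood at 654, 713 and 686 TPM, and with IL-33+IL-13 at 642, 739 and 628 TPM. With IL-13+IL-17A it stood at 925, 876 and 925 TPM, and with IL-13 at 977, 946 and 934 TPM. These 12 libraries lay far above the other 12, and those without IL-33 lay above those with it. Ch25h stood at 47.1, 46.7 and 35.1 TPM with IL-33+IL-17A, at 44.9, 49.6 and 54.2 TPM with IL-33, and at 48.5, 48.2 and 43.7 TPM with IL-17A, against 39.4, 52.6 and 37.8 TPM in untreated cells. The ranges of these 4 groups overlapped. Cells with IL-13 averaged 952.5 ± 22.3 TPM and untreated cells 43.3 ± 8.11 TPM (SD, n = 3 each), a ratio of 22.02. On the log2(TPM + 1) scale, which is used for all differences below, that was 4.44 (limma, SE 0.11, Benjamini-Hochberg adjusted p = 1.15e-15). With IL-33+IL-13+IL-17A the mean was 15.8 times that of untreated cells, with IL-33+IL-13 15.5 times and with IL-13+IL-17A 21.01 times. Behind these values were 816 to 1523 recovered reads a library with IL-13 and 43 to 87 without.

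**Figure D1:**
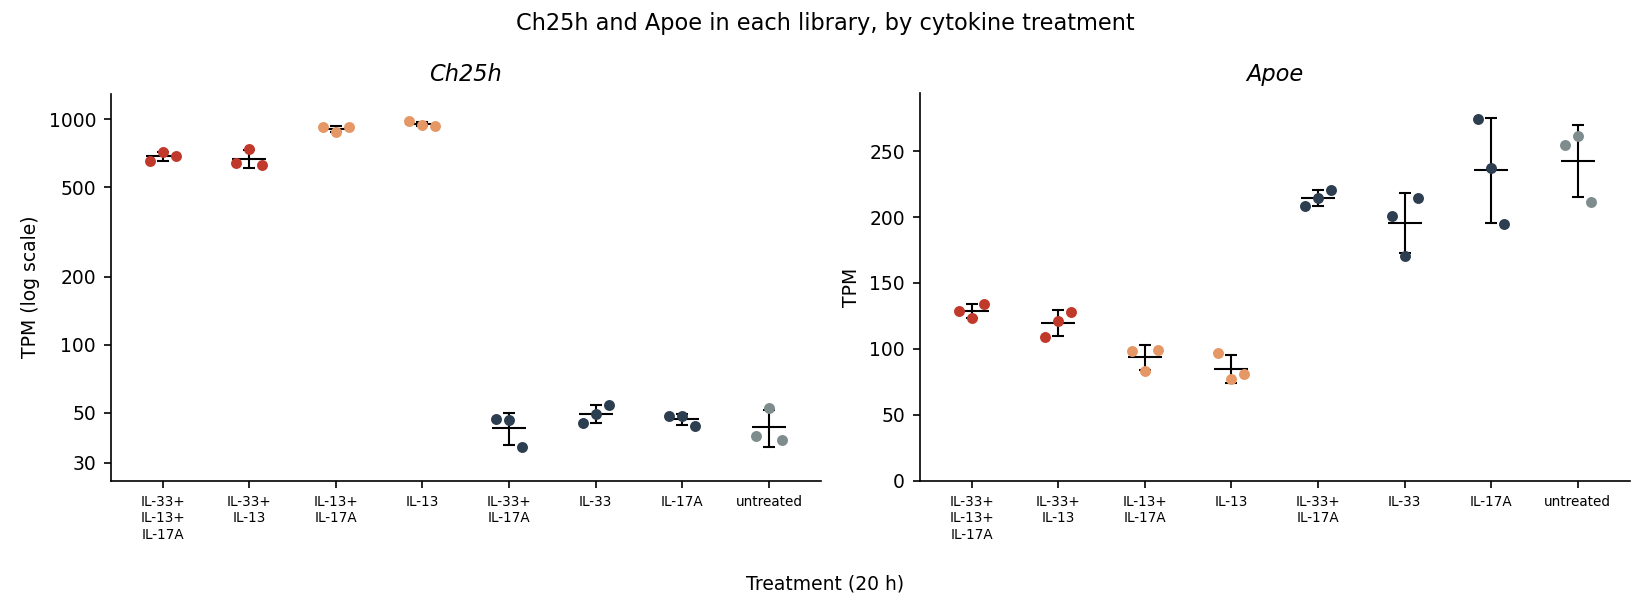
TPM of Ch25h (left, log axis) and Apoe (right, axis from 0) in each of the 24 libraries, by treatment for 20 h. Points are libraries (red, IL-13 and IL-33; orange, IL-13 without IL-33; dark blue, IL-33 or IL-17A or both without IL-13; grey, untreated), horizontal ticks are group means and bars are SD (n = 3). Ch25h lay at 628 to 977 TPM in the 12 libraries with IL-13 and at 35.1 to 54.2 TPM in the 12 without, and Apoe at 77.3 to 134 TPM with IL-13 and 170.4 to 274 TPM without.

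The 2 receptor genes moved in opposite directions. Nr1h3, which encodes LXRα, stood at 25.3, 24.9 and 25.2 TPM with IL-33+IL-13+IL-17A, at 25.2, 26.8 and 25.5 TPM with IL-33+IL-13, at 24.4, 24.98 and 24.2 TPM with IL-13+IL-17A and at 25.6, 23.8 and 26.1 TPM with IL-13. It stood at 17.2, 19.02 and 19.1 TPM with IL-33+IL-17A, at 20.1, 18.6 and 17.6 TPM with IL-33, and at 20.4, 19.4 and 20.8 TPM with IL-17A, against 19.6, 19.3 and 19.6 TPM in untreated cells. The libraries with IL-13 lay above all those without. The difference between IL-13 and untreated cells was 0.35 (limma, SE 0.049, adjusted p = 1.41e-05), and it was 0.32 to 0.39 in the other 3 IL-13 groups. Nr1h2, which encodes LXRβ, averaged 274 ± 5.07 TPM with IL-33+IL-13+IL-17A, 269 ± 1.58 with IL-33+IL-13, 265 ± 2.70 with IL-13+IL-17A and 259 ± 1.34 with IL-13. It averaged 301 ± 18.8 TPM with IL-33+IL-17A, 286 ± 9.05 with IL-33, 297 ± 6.96 with IL-17A and 299.8 ± 23.5 in untreated cells (SD, n = 3 each). Of the 12 libraries with IL-13, 10 lay below the lowest without it, and the ranges overlapped. Nr1h2 was lower with IL-13 than in untreated cells by a small amount (-0.21, limma, SE 0.046, adjusted p = 0.00179), and this call was lost with only these 2 groups in the fit (adjusted p = 0.0512).

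Abca1, the transporter that loads cholesterol onto apolipoprotein A-I, fell. It stood at 1.05, 0.657 and 1.19 TPM with IL-33+IL-13+IL-17A, at 0.955, 1.47 and 0.948 TPM with IL-33+IL-13, at 1.47, 1.47 and 1.64 TPM with IL-13+IL-17A and at 1.48, 1.32 and 1.35 TPM with IL-13. The lowest was the library that stood farthest out on the second component. Abca1 stood at 1.98, 2.44 and 2.30 TPM with IL-33+IL-17A, at 2.41, 2.29 and 2.50 TPM with IL-33 and at 2.32, 1.85 and 2.60 TPM with IL-17A, against 1.83, 2.54 and 2.30 TPM in untreated cells. Every library with IL-13 lay below every library without. The difference between IL-13 and untreated cells was -0.43 (limma, SE 0.12, adjusted p = 0.0116). The scale understates it, since the gene spans 129109 bases and its values are near 1 TPM for 96 to 360 reads a library. On recovered reads, limma-voom put the level with IL-13 at 0.62 times that of untreated cells (95% interval 0.51 to 0.754, adjusted p = 0.00028). With IL-33+IL-13+IL-17A it was 0.441 times (0.356 to 0.547, adjusted p = 1.09e-06).

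Abcg1, the transporter that loads cholesterol onto mature high-density lipoprotein, was close to its untreated level in the IL-13 groups. It averaged 106 ± 7.91 TPM with IL-33+IL-13+IL-17A, 109 ± 4.74 with IL-33+IL-13, 111 ± 2.71 with IL-13+IL-17A and 112 ± 1.47 with IL-13. It averaged 102 ± 5.14 TPM with IL-33+IL-17A, 99.0 ± 2.06 with IL-33, 102 ± 7.10 with IL-17A and 105 ± 4.25 in untreated cells (SD, n = 3 each). Of the 12 libraries with IL-13, 7 lay above the highest without it. No IL-13 group passed the test against untreated cells, and the 95% interval for IL-13 was -0.03 to 0.20 (limma, adjusted p = 0.303). With median-ratio scaling IL-13 passed it (0.11, adjusted p = 0.0143), and so did IL-33+IL-13+IL-17A (0.09, adjusted p = 0.0463).

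Apoe, whose protein carries lipid out of macrophages, fell most. It stood at 129, 124 and 134 TPM with IL-33+IL-13+IL-17A, at 109, 122 and 128 TPM with IL-33+IL-13, at 98.5, 82.9 and 99.3 TPM with IL-13+IL-17A and at 96.8, 77.3 and 80.7 TPM with IL-13. It stood at 208, 215 and 220.3 TPM with IL-33+IL-17A, at 201, 170.4 and 215 TPM with IL-33 and at 274, 237 and 195 TPM with IL-17A, against 255, 261 and 211 TPM in untreated cells. The 12 libraries with IL-13 lay below the other 12, and within them those with IL-33 lay above those without. Cells with IL-13 averaged 84.9 ± 10.4 TPM, 35.01% of the 243 ± 27.1 TPM of untreated cells (SD, n = 3 each), a difference of -1.50 (limma, SE 0.12, adjusted p = 8.48e-09). With IL-33+IL-13+IL-17A the mean was 53.1% of that of untreated cells, with IL-33+IL-13 49.2% and with IL-13+IL-17A 38.6%.

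Mylip also fell. It stood at 7.15, 5.71 and 6.56 TPM with IL-33+IL-13+IL-17A, at 6.12, 5.43 and 6.53 TPM with IL-33+IL-13, at 7.43, 6.93 and 6.28 TPM with IL-13+IL-17A and at 6.83, 6.09 and 7.36 TPM with IL-13. It stood at 9.91, 9.64 and 8.95 TPM with IL-33+IL-17A, at 9.73, 9.02 and 10.52 TPM with IL-33 and at 10.3, 9.59 and 9.71 TPM with IL-17A, against 9.34, 10.3 and 10.2 TPM in untreated cells. The libraries with IL-13 lay below all those without. The difference between IL-13 and untreated cells was -0.50 (limma, SE 0.084, adjusted p = 0.000116), and the other 3 IL-13 groups gave -0.48 to -0.64.

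**Figure D2:**
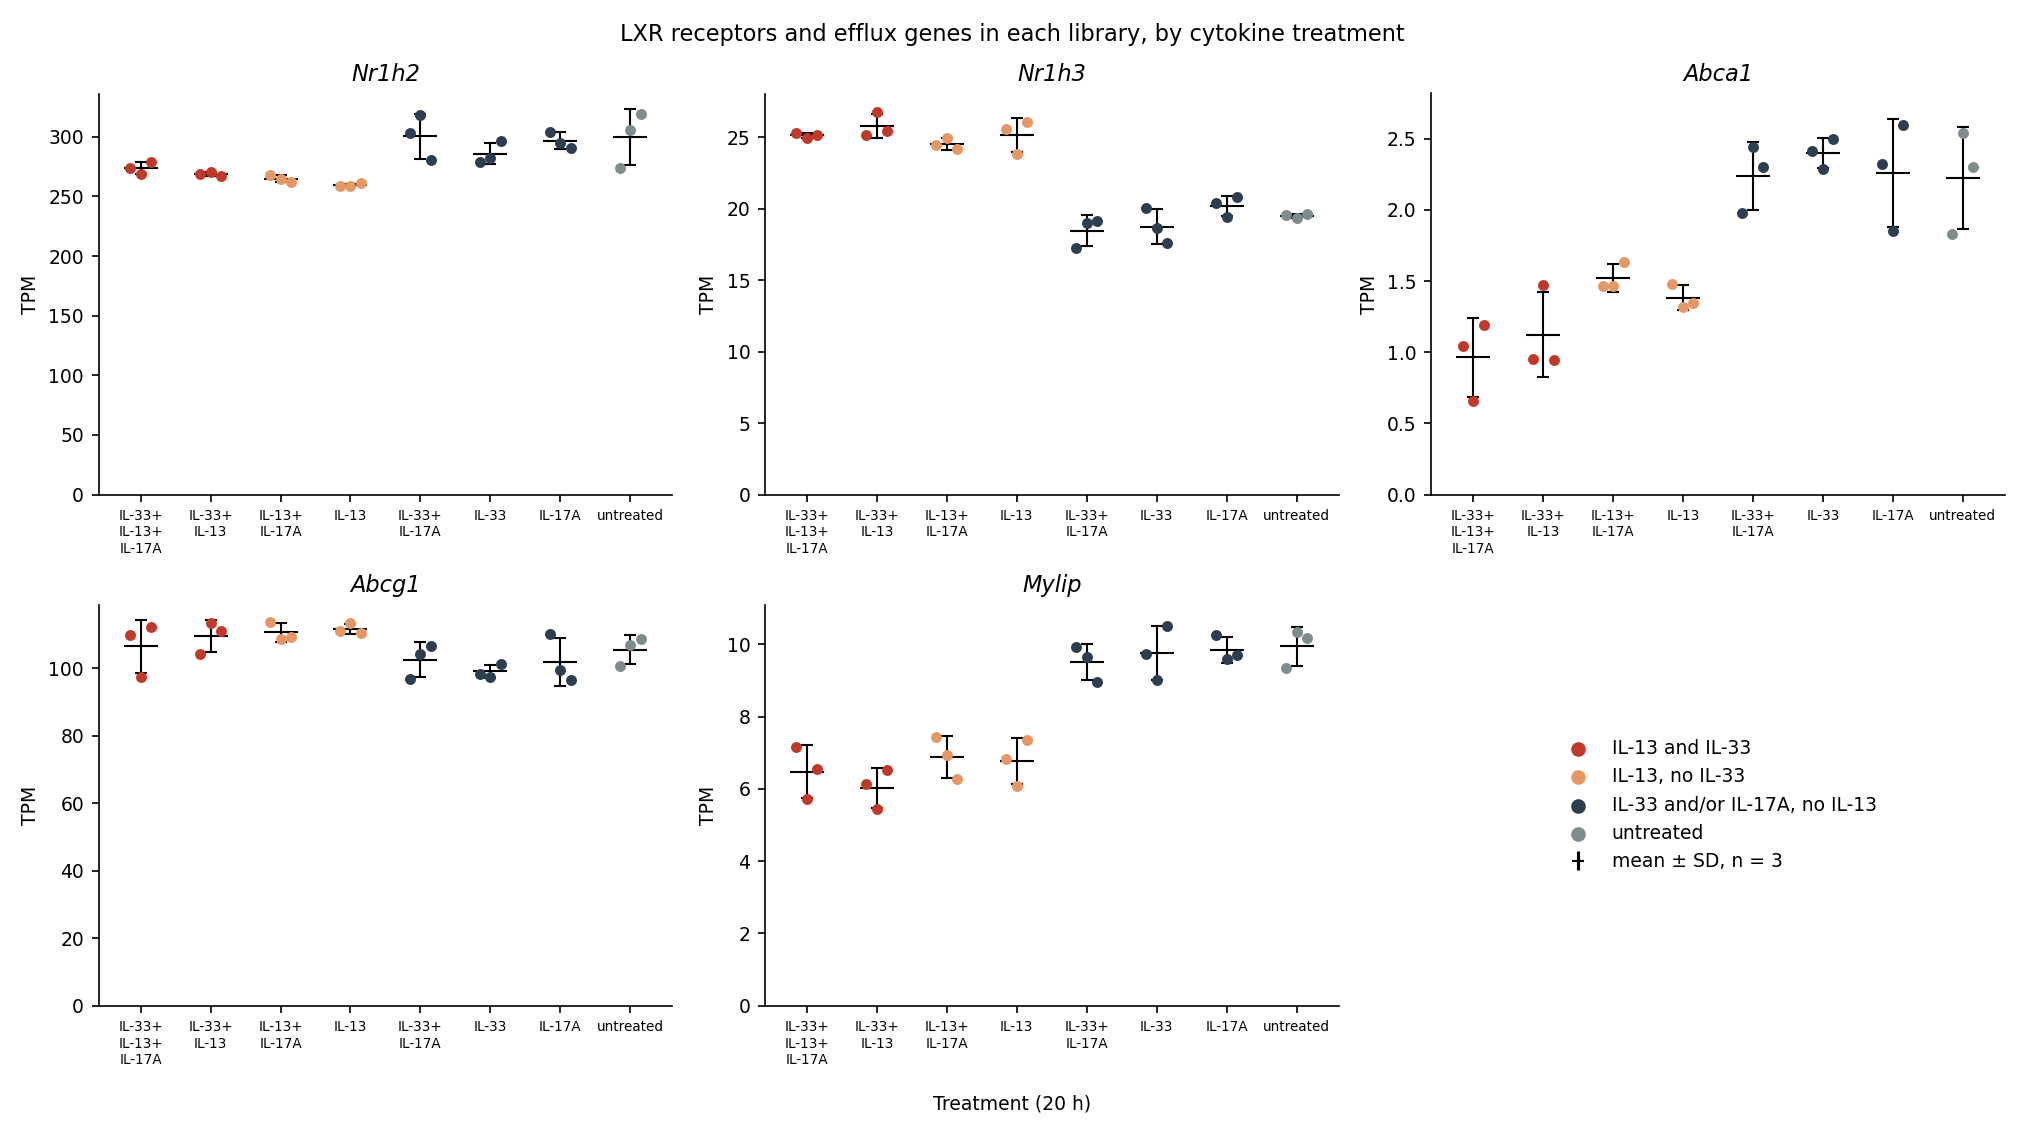
TPM of Nr1h2, Nr1h3, Abca1, Abcg1 and Mylip in each of the 24 libraries, by treatment for 20 h, on axes from 0. Points are libraries, horizontal ticks are group means and bars are SD (n = 3). Nr1h3 was higher and Abca1 and Mylip were lower in every library with IL-13 than in every library without, and the ranges of Nr1h2 and Abcg1 overlapped.

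Against untreated cells, 6 of the 7 genes were called (adjusted p under 0.05) in each of the 4 IL-13 groups. Ch25h and Nr1h3 rose, Nr1h2, Abca1, Apoe and Mylip fell, and Abcg1 was not called. The background share of all 13215 genes called was 28.1% with IL-33+IL-13+IL-17A, 25% with IL-33+IL-13, 29.5% with IL-13+IL-17A and 29.8% with IL-13. These comparisons share the untreated libraries. The Nr1h2 call with IL-33+IL-13+IL-17A (-0.13, limma, adjusted p = 0.0469) was lost in 24 of 32 alternative settings. The Abca1 call with IL-13+IL-17A (-0.35, adjusted p = 0.0396) was lost in 8, 5 of which left out 1 of the 6 libraries compared (adjusted p = 0.0575 to 0.161). The Abca1 call with IL-13 was lost without untreated replicate 2 (adjusted p = 0.0637) and with only the 2 groups in the fit (0.0518). Without untreated replicate 3, the Nr1h2 call was lost with IL-13+IL-17A (adjusted p = 0.051) and with IL-33+IL-13 (0.123), and the last was also lost without untreated replicate 2 (0.0739) or IL-33+IL-13 replicate 3 (0.0535). Over all 12 libraries with IL-13 against the 12 without, the average IL-13 effect called all 7 genes, 3 higher and 4 lower, in a comparison that called 50.9% of all genes. Among all genes 2644 were higher and 4079 lower, and under median-ratio scaling 3436 were higher and 3367 lower. For IL-33+IL-13+IL-17A against untreated cells the split was 1367 higher and 2343 lower, and under that scaling it was 1966 and 1841. The average effect was 4.10 for Ch25h (limma, SE 0.056, adjusted p = 1.31e-20), 0.37 for Nr1h3 (adjusted p = 1.55e-10) and 0.10 for Abcg1 (adjusted p = 0.00507). It was -1.06 for Apoe (adjusted p = 1.37e-11), -0.55 for Abca1 (adjusted p = 3.28e-07), -0.52 for Mylip (adjusted p = 3.55e-09) and -0.15 for Nr1h2 (adjusted p = 2.22e-05). The values of 5 of the 7 genes, all but Nr1h2 and Abcg1, did not overlap between libraries with and without IL-13, as was so for 15.1% of all genes tested.

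Marker lists of other cells were read beside these differences. Of 6 neutrophil markers 3 were in the tables, and their summed level was 67.3 to 127 TPM with IL-13 and 136 to 177 TPM without, most of it S100a8. Of 6 epithelial markers 4 were in the tables, at a sum of 26.8 to 42.8 TPM with IL-13 and 6.88 to 8.96 TPM without, most of it Cdh1, while Krt8 had a median of 0. Of 6 fibroblast markers 4 were in the tables, at 2.31 to 4.22 TPM with IL-13 and 4.76 to 6.78 TPM without, most of it Pdgfra, while Col1a1 and Dcn had a median of 0. The sums of the monocyte and interstitial macrophage, endothelial and dendritic cell lists overlapped between libraries with and without IL-13, and lymphocyte markers were not analysed here. The part of these cells, and of the alveolar macrophage markers whose sum was also apart, in the differences was not tested.

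The next question was what IL-33 did on top of IL-13. Ch25h was lower and Apoe higher when IL-33 was present. Over both backgrounds, the 6 libraries with IL-33 and IL-13 held Ch25h at 628 to 739 TPM and the 6 with IL-13 but no IL-33 at 876 to 977 TPM, a ratio of means of 0.728. Apoe stood at 109 to 134 TPM with IL-33 and at 77.3 to 99.3 TPM without, a ratio of 1.39. The values of these 2 of 7 genes did not overlap, as was so for 5.32% of all genes tested. Without IL-17A, the difference between IL-33+IL-13 and IL-13 was -0.51 for Ch25h (limma, SE 0.11, adjusted p = 0.0152) and 0.49 for Apoe (SE 0.12, adjusted p = 0.0286). These 2 of the 7 genes were called, in a comparison that called 2.57% of all genes. The Ch25h call was lost without IL-33+IL-13 replicate 1 (adjusted p = 0.0706) or replicate 3 (0.081) or IL-13 replicate 1 (0.0704). The Apoe call was lost without IL-33+IL-13 replicate 2 (0.0969) or replicate 3 (0.134), or without IL-13 replicate 2 (0.145) or replicate 3 (0.129). With only the 2 groups in the fit, the Apoe call was lost too (limma, adjusted p = 0.118). It was also lost without the libraries numbered 30 and above in the labels (0.49). With IL-17A, Apoe alone of the 7 was called (0.46, limma, SE 0.12, adjusted p = 0.0353) between IL-33+IL-13+IL-17A and IL-13+IL-17A, where 3.55% of all genes were (152 higher and 317 lower, and 255 and 327 under median-ratio scaling). That call was lost on leaving out any of the 6 libraries compared (0.38 to 0.51, adjusted p = 0.0598 to 0.191), and with only these 2 groups in the fit (adjusted p = 0.118). It was lost as well without the libraries numbered 30 and above (0.43). Ch25h there was at -0.41 (95% interval -0.64 to -0.17, limma, adjusted p = 0.0507), and limma-voom on recovered reads called it (adjusted p = 0.00119). Limma-voom also called Abca1 lower there, at 0.647 times the level with IL-13+IL-17A (95% interval 0.517 to 0.809, adjusted p = 0.018), while the test on TPM did not (-0.37, adjusted p = 0.129). In both backgrounds the 95% intervals of Nr1h2, Nr1h3 and Abcg1 stayed within -0.17 and 0.15. Whether the IL-33 difference itself changed with IL-17A was not tested.

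The effect of IL-33 was set against its effect without IL-13 by an interaction term. Without IL-17A, IL-33 changed Ch25h by -0.71 more with IL-13 than without it (limma, SE 0.16, adjusted p = 0.0295) and Apoe by 0.80 more (SE 0.17, adjusted p = 0.0186). These 2 of 7 genes were called, against 1.17% of all genes. The Ch25h call was lost on leaving out any 1 of 9 libraries (adjusted p = 0.0612 to 0.0868) and the Apoe call any 1 of 6 (0.0537 to 0.0605), which the closing section names. Limma-voom kept that of Apoe (adjusted p = 0.0116) but not that of Ch25h (0.0621). Both calls were lost without the libraries numbered 30 and above (-0.65 for Ch25h and 0.87 for Apoe). With IL-17A present, 0 of the 7 genes were called, against 1.51% of all genes. The term was then -0.28 for Ch25h (95% interval -0.61 to 0.05, adjusted p = 0.475) and 0.58 for Apoe (95% interval 0.23 to 0.93, limma, adjusted p = 0.113). At an unadjusted limma p under 0.05 were Apoe (0.0027), Nr1h3 (0.0323) and Abca1 (0.0499), with 1579 of all genes. Limma-voom called Apoe there (adjusted p = 0.0301).

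**Figure D3:**
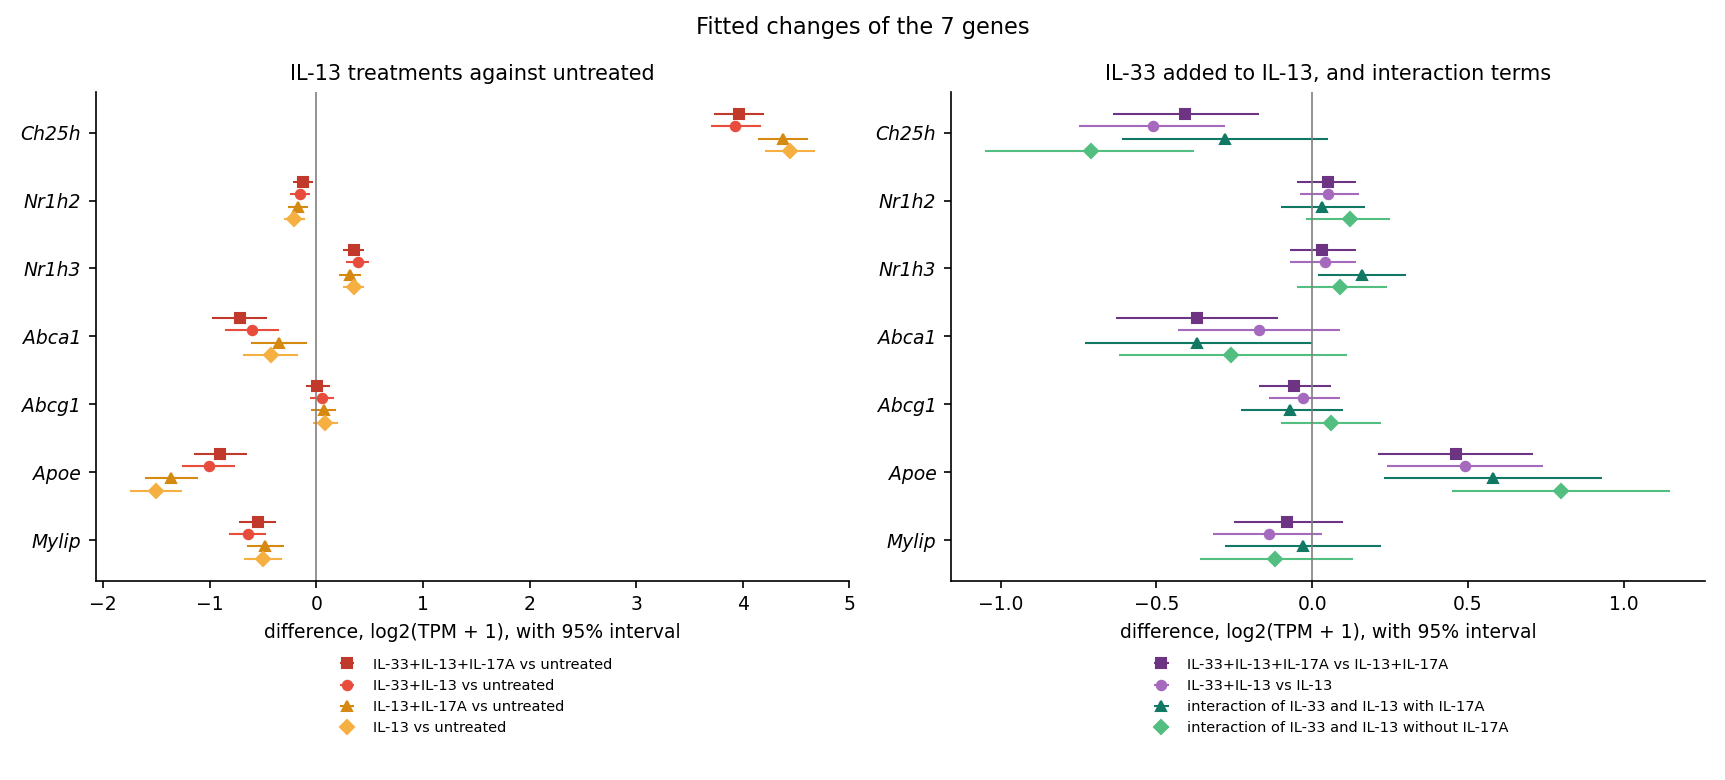
Fitted differences of the 7 genes on the log2(TPM + 1) scale with 95% intervals from limma. The left panel sets the 4 IL-13 groups against untreated cells, and the right panel shows IL-33 added to IL-13 in both backgrounds with the interaction terms. Ch25h lies near 4 on the left in every IL-13 group, and on the right Ch25h lies below 0 and Apoe above it, with the interval of the Ch25h interaction with IL-17A crossing 0.

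Without IL-13, no member passed the test. None of the 7 genes was called with IL-33+IL-17A, IL-33 or IL-17A against untreated cells, and the share of all genes called by limma was 0% each time. At an unadjusted p under 0.05 there were 501, 484 and 469 genes in those comparisons, and limma-voom called 0 in each. Of the 7 genes only Apoe had such a p, with IL-33 alone (-0.31, 95% interval -0.56 to -0.06, limma, unadjusted p = 0.0168, adjusted p = 1). The other intervals of the 7 genes in these comparisons lay between -0.42 and 0.44.

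IL-17A added to IL-13 moved no member past the test either. Between IL-33+IL-13+IL-17A and IL-33+IL-13, 0 of 7 genes and 0% of all genes were called (826 at an unadjusted p under 0.05, limma-voom 0). Between IL-13+IL-17A and IL-13, 0 of 7 and 0% were called (373 at an unadjusted p under 0.05, limma-voom 0). The intervals of the 7 genes lay between -0.37 and 0.39, with Abca1 at the low end and Apoe at the high end. The interaction of IL-17A and IL-13 without IL-33 called 0 of 7 and 0% of all genes by limma (372 at an unadjusted p under 0.05, limma-voom 0), with intervals between -0.53 for Ch25h and 0.54 for Apoe. Intervals of this width do not show that IL-17A left the genes as they were.

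To compare levels between genes, reads were divided by exonic length, because the deposited TPM uses the whole span of a gene. On this exonic TPM scale the order with IL-13 was Abcg1 (302 ± 9.60), Ch25h (268 ± 44.1), Nr1h2 (115 ± 3.44), Nr1h3 (62.7 ± 1.98), Apoe (51.4 ± 10.1), Mylip (15.03 ± 1.42) and Abca1 (5.18 ± 1.17, SD, n = 12 each). Without IL-13 it was Abcg1 (283 ± 11.6), Nr1h2 (128 ± 5.58), Apoe (107 ± 14.3), Nr1h3 (48.1 ± 2.69), Mylip (22.6 ± 1.05), Ch25h (15.3 ± 1.93) and Abca1 (9.52 ± 1.02). On this scale and over these pooled libraries, Ch25h thus stood next to last without IL-13 and next to first with it. The second place depended on the groups with IL-33. With IL-13 alone Ch25h averaged 315 and Abcg1 305, and with IL-13+IL-17A 302 and 304. With IL-33+IL-13 they averaged 223 and 302, and with IL-33+IL-13+IL-17A 231 and 297 (n = 3 each). With IL-13, the libraries' ranges overlapped between the neighbours Abcg1 (278 to 312) and Ch25h (211 to 322), and between Nr1h3 (58.9 to 65.7) and Apoe (36.9 to 64.3). Without IL-13, they overlapped between Nr1h2 (121 to 137) and Apoe (83.3 to 131). The ranges of the other neighbours were apart. Nr1h2 stood above Nr1h3 in every group. The order depends on the length used, and whether the reads were counted in exons alone is not given in the sources used here. On the deposited TPM, Ch25h had the highest mean of these genes with IL-13 (804 TPM). Without IL-13 its mean there (45.6 TPM) lay between those of Abcg1 (102 TPM) and Nr1h3 (19.2 TPM).

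The surrounding pathway genes were read from 7 lists in the average IL-13 effect, where the median of all tested genes was -0.05 and 20% of genes rose and 30.9% fell. Of 15 tested LXR targets beside the members, 6 rose and 6 fell, with a median of 0.04, and with median-ratio scaling 8 rose and 5 fell. The desaturase genes Scd2 (1.11, limma adjusted p = 1.75e-13) and Scd1 (0.96, adjusted p = 2.04e-11) rose, and Arl4c, a small GTPase gene (-1.11, adjusted p = 1.49e-12), and the phosphodiesterase gene Smpdl3a (-0.44, adjusted p = 7.35e-13) fell. Scd2 averaged 474.5 ± 53.7 TPM with IL-13 and 218 ± 16.8 TPM without (SD, n = 12 each). Of 14 receptor partners and cofactors 3 rose and 4 fell, with a median of -0.12. Pparg, a lipid-sensing receptor that shares the retinoid X receptor partner, rose by 1.35 (adjusted p = 4.16e-19), with 22.04 ± 0.788 TPM with IL-13 and 8.05 ± 0.386 TPM without. The partner gene Rxrb (-0.32, adjusted p = 4.9e-07) and Tbl1xr1, part of the corepressor complex (-0.18, adjusted p = 0.000465), fell.

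Of 8 tested oxysterol makers, removers and sensors beside Ch25h, 2 rose and 5 fell, with a median of -0.17. Cyp27a1, which makes 27-hydroxycholesterol, fell (-0.43, limma adjusted p = 1.19e-07), and so did Hsd3b7, which acts on oxysterols on the way to bile acids (-0.15, adjusted p = 6.12e-09), Osbpl2, which encodes a sterol-binding protein (-0.24, adjusted p = 1.22e-05), and Insig2, which encodes a sterol-regulated anchor of SCAP (-0.19, adjusted p = 2.41e-05). Of 9 cholesterol uptake receptors 5 rose and 2 fell, with a median of 0.10. The scavenger receptor genes Cd36 (0.79, adjusted p = 1.75e-17), Olr1 (0.51, adjusted p = 1.06e-08) and Msr1 (0.29, adjusted p = 2.45e-05) rose, and Scarb2, a lysosomal membrane protein (-0.26, adjusted p = 6.53e-08), fell. Of 18 genes of cholesterol esterification, storage and export 5 rose and 10 fell, with a median of -0.14. Abca9, a transporter gene (-1.15, adjusted p = 3.28e-12), Stard3, which encodes a sterol-binding protein of late endosomes (-0.28, adjusted p = 1.91e-10), and Soat1, which esterifies cholesterol (-0.16, adjusted p = 6.97e-06), fell, and the transporter gene Abcg2 rose (0.50, adjusted p = 4.72e-11). Npc1 and Npc2 are on 2 of the lists.

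Of 22 genes of the SREBP2 pathway and cholesterol synthesis, 18 rose and 1 fell, with a median of 0.28. Fdps (0.59, limma adjusted p = 3.27e-15), Mvd (0.41, adjusted p = 6.72e-12), Pmvk (0.36, adjusted p = 1.76e-10) and Dhcr7 (0.31, adjusted p = 6.54e-10), enzymes of the mevalonate and later sterol steps, rose, and the gene that fell was Scap (-0.28, adjusted p = 6.56e-05), which escorts SREBP2. With IL-33 added to IL-13, 0 of the 22 rose and 3 fell, among them Mvd (-0.19, adjusted p = 0.022) and Dhcr7 (-0.21, adjusted p = 0.0108). With IL-17A also present, 0 rose and 4 fell. Of the 15 LXR targets, 0 rose and 1 fell with IL-33 added to IL-13, and 0 rose and 3 fell with IL-17A also present. Over all genes tested, 0.832% rose and 1.74% fell with IL-33 added to IL-13, and 1.15% rose and 2.4% fell with IL-17A also present. Of 6 tested interferon-stimulated genes, listed because Ch25h is known as one, 1 rose and 2 fell, with a median of -0.08. Irf7 (-0.36, adjusted p = 4.1e-05) and Rsad2 (-0.41, adjusted p = 0.000896) fell. Rsad2 averaged 0.612 TPM with IL-13 and 1.15 TPM without, near the 1 TPM limit of the filter. The other 9 of the 15 listed did not reach the level for testing or were not in the tables.

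**Figure D4:**
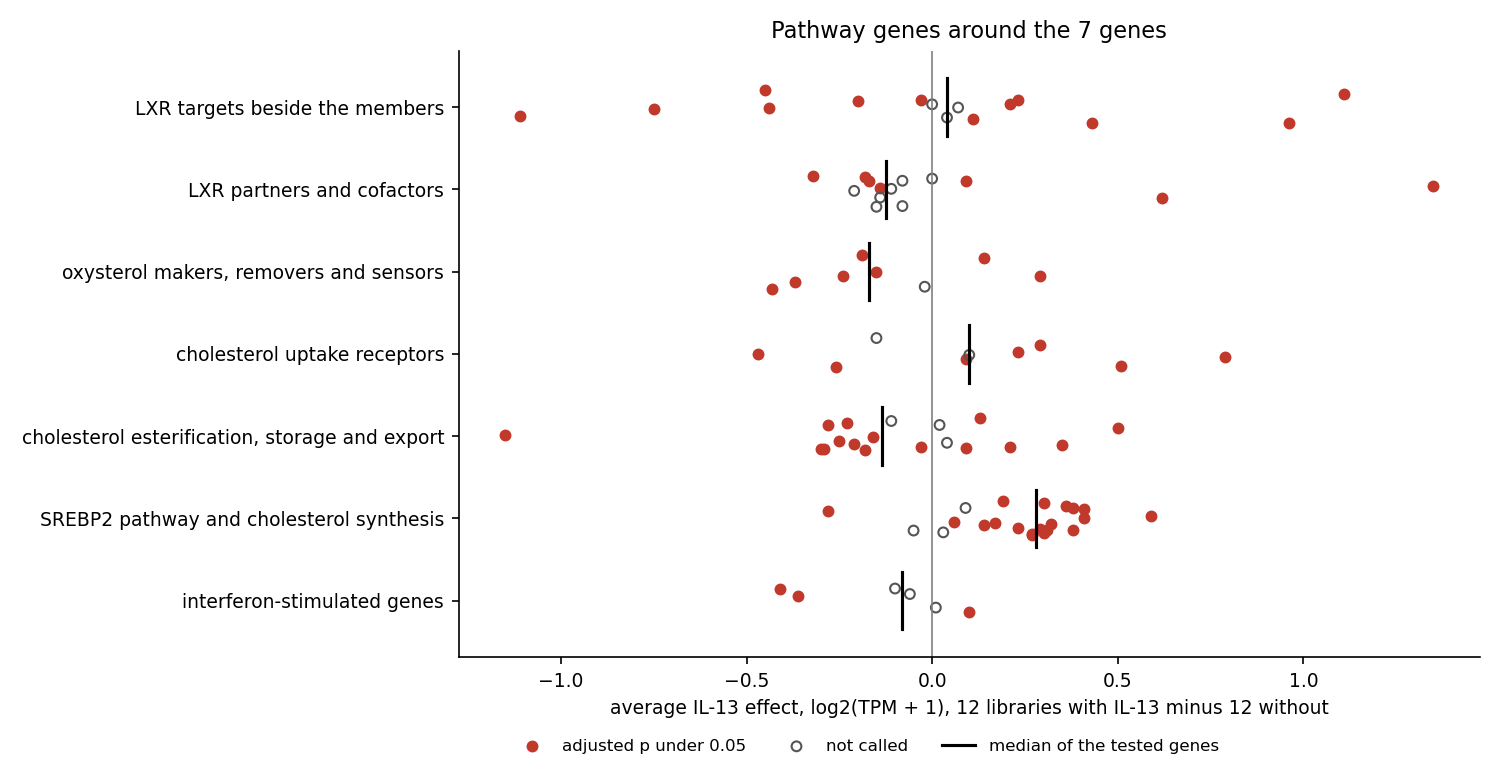
Average IL-13 effect on the log2(TPM + 1) scale (horizontal axis, 12 libraries with IL-13 minus 12 without) for each tested gene of the 7 pathway lists. Filled points passed an adjusted p of 0.05 in limma, open points did not, and vertical bars are list medians. The cholesterol synthesis genes lie mostly to the right with a median of 0.28, and the LXR targets are spread from -1.11 to 1.11.

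Genes with the pattern most like that of Ch25h and of Apoe were found by Pearson r across the 8 group means, among 211 genes whose means spanned at least 2 log2 units. This is a description over groups that share their libraries. The span limit kept only genes with large differences between groups, and r was not compared with its spread over these 211 genes. Apoe itself, at -1.50 between IL-13 and untreated cells, fell short of that span, so genes with changes of its size were left out. Nearest Ch25h were Cdh1 (r = 0.9992), Rnf19b (0.999), Ocstamp (0.999), Lhx2 (0.9989) and Ptgir (0.9988), and nearest Apoe were Cxcr2 (0.9926), Gpr132 (0.9872), Lyl1 (0.9844), Cdkn1c (0.982) and Tnni2 (0.9818). Cdh1 is the main member of the epithelial marker sum above, and Cxcr2 is on the neutrophil list. Cdh1 averaged 30.001 TPM with IL-33+IL-13+IL-17A, 31.8 with IL-33+IL-13, 38.9 with IL-13+IL-17A, 38.1 with IL-13 and 3.54 in untreated cells. Cxcr2 averaged 2.87 TPM with IL-33+IL-13+IL-17A, 2.61 with IL-33+IL-13, 1.36 with IL-13+IL-17A, 1.49 with IL-13 and 9.20 in untreated cells. Their part in the likeness was not tested. Rnf19b, which encodes a ubiquitin ligase, averaged 98.6 TPM with IL-33+IL-13+IL-17A, 108 with IL-33+IL-13, 118 with IL-13+IL-17A, 120 with IL-13 and 25.8 in untreated cells. Gpr132, a lipid-sensing receptor gene, averaged 3.33 TPM with IL-33+IL-13+IL-17A, 3.40 with IL-33+IL-13, 1.98 with IL-13+IL-17A, 1.91 with IL-13 and 11.1 in untreated cells.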

How the data were processed

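The data were 24 deposited tables, 1 for each library, with 17017 genes and a TPM column that the authors computed over the whole gene span, introns included. That length was checked against the coordinates in the tables. STAR and mm10 are named in the submitters' processing notes. The sources used here give no STAR version, counting tool or strand setting. TPM multiplied by span gave, after division by 1 constant for each library, read numbers within 0.05 of a whole number. This held for 89.9% to 91.4% of the values at or below 20 reads, and the libraries' totals were 9130748 to 12886882 recovered reads. These are estimates.

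Limma-trend (limma 3.58.1, R 4.3.3) was fitted to log2(TPM + 1) of the 13215 genes that passed the filter, with a mean for each of the 8 groups, no covariate and 16 residual degrees of freedom. Benjamini-Hochberg adjustment covered all tested genes within a comparison, and genes under 0.05 were called. The code of the fit was checked on simulated reads, with the same dispersion for every gene and few genes changed, in the IL-13 group only. That setting is simpler than these data, so the check does not show how the fit behaves here. Exonic lengths were taken from GENCODE M21 (GRCm38), where 16998 of the 17017 identifiers were found. Coordinates are 1-based, with 1 base taken off the deposited stop.

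The members and gene lists were chosen with earlier results of these data known. The named genes beside the members were, from each list, up to 4 called genes with the smallest p in the average IL-13 effect, and the 5 genes nearest Ch25h and Apoe in pattern. Scap and the gene named in the closing section were named after their values were seen. Some genes that the rule picks are not reported here. The alternatives were median-ratio scaling, a pseudocount of 0.1, no filter, limma-voom on recovered reads, exonic length, only the groups compared, leaving out libraries numbered 30 and above in the labels, and leaving out each library in turn. Another, chosen after seeing the data, left out the 3 libraries far out on the second component.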

Additional observations from a re-analysis of the deposited data

Results flagged for a closer look

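The response of Ch25h and of Apoe to IL-33 differed between cells with IL-13 and cells without it in the absence of IL-17A, by a test of the difference itself. For Ch25h the interaction was -0.71 on the log2(TPM + 1) scale (limma, adjusted p = 0.0295), and the values over 32 alternatives ran from -0.86 to -0.63 with adjusted p of 0.00276 to 0.0894. The call was lost in 13 of them, 9 of which left out 1 library (untreated replicate 1 or 3, IL-13 replicate 1, 2 or 3, IL-33 replicate 2 or 3, IL-33+IL-13 replicate 1 or 3). For Apoe the interaction was 0.80 (limma, adjusted p = 0.0186), with values from 0.71 to 0.90 and adjusted p of 0.00793 to 0.0612, and the call was lost in 9 alternatives, 6 of which left out 1 library (untreated replicate 1 or 2, IL-13 replicate 2 or 3, IL-33 replicate 2, IL-33+IL-13 replicate 3). In the presence of IL-17A neither passed the test, and whether the interaction itself differed with IL-17A was not tested.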

How the results depend on the processing

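Over 32 alternative settings (31 for the average IL-13 effect, which uses all groups), 25 of the 36 calls among the 7 genes were never lost, 11 were lost somewhere, 5 of 69 results that were not called became so, and 0 reversed. The calls of Ch25h, Nr1h3, Apoe and Mylip in the 4 IL-13 groups against untreated cells were never lost. With only the groups compared in the fit, the genes called numbered 3 for IL-33 against untreated cells, 5 for IL-17A, 3 for IL-33+IL-17A and 1508 for IL-33+IL-13+IL-17A. That fit called 144 genes between IL-33+IL-13 and IL-13, 49 between IL-33+IL-13+IL-17A and IL-13+IL-17A, and 65 in the interaction with IL-17A. The 3, 5 and 3 genes held no member and were processed pseudogenes apart from Gm43148. Without libraries numbered 30 and above, which left IL-33+IL-17A with 1 library assumed to vary like the others, the interaction called 94 genes without IL-17A and 55 with it. Without the 3 libraries far out on the second component, the interaction with IL-17A called 116. Leaving out 1 library gave 212 to 418 genes between IL-33+IL-13 and IL-13, 286 to 666 between IL-33+IL-13+IL-17A and IL-13+IL-17A, and 105 to 237 in the interaction with IL-17A, where limma-voom called 130 higher and 115 lower, against 83 and 117 on TPM. The causes of these changes were not tested. Depth limits Abca1, with 96 to 360 reads in a library, Mylip, with 118 to 278, and Ch25h without IL-13, with 43 to 87. No paired analysis was possible because the labels give the groups no shared replicate numbers. The replicate numbers used here were given in order within each group and pair no libraries.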
